A study of Homo sapiens with 3 samples.

Results

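Peaks of histone H2A acetylated at lysine 130 whose summits lay inside long noncoding RNA genes, and outside every protein-coding gene, numbered 5905 of the 50985 listed in UMUC3 bladder cancer cells. Of these, 2807 of 23975 peaks came from cells exposed to cigarette smoke media and 3098 of 27010 from air-exposed cells. A peak was taken when its summit lay in the span of a gene of biotype lncRNA or ncRNA, outside all protein-coding spans, and at most 500 kb from the nearest protein-coding gene (hg38). All 5905 summits lay in genes of biotype lncRNA, and 0 needed the 52 genes of biotype ncRNA, so the name long noncoding RNA held for the whole set.

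UMUC3 is an established human bladder carcinoma line, grown in EMEM with 10% fetal bovine serum. Chromatin was immunoprecipitated with an acK130-H2A antibody and sequenced in 1 library from cells given 10% smoke media for 3 days and 1 library from air-exposed cells. The remaining library was an input and was not analysed here. The treatment text stands on all 3 samples, so the groups rest on the treatment label. Each group is 1 library, so differences below are without replicates and no test was run. Read depth is unknown because peak lists carry no totals. Of 10 luminal urothelial marker genes 2 held a peak (UPK1B and PPARG), and of 6 basal markers 3 did (KRT6A, CD44 and TP63), beside 34.1% of all coding genes. A peak of this mark is no expression level, so the cell type was not checked further.

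Long noncoding RNAs are transcripts that are spliced and capped much like messenger RNAs but have no annotated protein product. Some act on the gene next to them, as many antisense and divergent transcripts do, some are cut into microRNAs or small nucleolar RNAs, and some bind proteins or other RNAs elsewhere in the cell. Acetylation of a lysine removes its positive charge, and acetylated histone tails are usually found in accessible chromatin. Acetylation near the carboxyl end of H2A is far less studied than that of the H3 and H4 tails.

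The sequences at noncoding RNA gene starts that lay under a peak are shown first, though peaks were sparser near starts than far from them. RefSeq windows of 300 bases (250 before to 50 after a start, GRCh38.p14) covered 12836 starts of noncoding RNA genes. Smoke peaks inside noncoding RNA genes touched 13 of these windows and air peaks 20, and 0 windows were touched in both libraries. The 20 air windows belonged to 18 genes and lay under 18 peaks, since a gene can have several listed starts. Over whole lists only 1.58% of smoke and 1.41% of air peaks overlapped a peak of the other library. For each library 4 windows follow, those of the highest peak −log10 q (ties by fold, then symbol). At least 50 bases had to lie under the peak, and its summit had to lie inside the gene. Sequences run 5′ to 3′ on the gene's strand, with the bases under the peak in capitals. The windows under smoke peaks were these:
LOC124901612: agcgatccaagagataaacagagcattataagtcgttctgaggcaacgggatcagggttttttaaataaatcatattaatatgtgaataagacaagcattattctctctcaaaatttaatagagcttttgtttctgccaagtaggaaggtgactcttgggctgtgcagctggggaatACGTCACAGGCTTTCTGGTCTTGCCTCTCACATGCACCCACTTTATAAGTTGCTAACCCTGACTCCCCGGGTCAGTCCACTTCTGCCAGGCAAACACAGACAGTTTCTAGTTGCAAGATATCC
CPMER: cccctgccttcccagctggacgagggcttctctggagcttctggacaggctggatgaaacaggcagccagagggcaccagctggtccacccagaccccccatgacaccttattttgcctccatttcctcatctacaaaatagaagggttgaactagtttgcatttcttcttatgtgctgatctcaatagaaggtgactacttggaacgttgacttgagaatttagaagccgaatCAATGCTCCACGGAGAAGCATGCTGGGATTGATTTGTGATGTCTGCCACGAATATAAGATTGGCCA
LINC02442: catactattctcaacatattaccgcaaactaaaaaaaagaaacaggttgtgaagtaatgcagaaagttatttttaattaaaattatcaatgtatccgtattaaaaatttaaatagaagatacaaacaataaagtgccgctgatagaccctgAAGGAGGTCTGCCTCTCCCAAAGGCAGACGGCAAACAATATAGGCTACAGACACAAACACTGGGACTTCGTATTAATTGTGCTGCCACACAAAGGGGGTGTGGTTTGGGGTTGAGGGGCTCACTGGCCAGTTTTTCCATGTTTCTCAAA
LOC105371775: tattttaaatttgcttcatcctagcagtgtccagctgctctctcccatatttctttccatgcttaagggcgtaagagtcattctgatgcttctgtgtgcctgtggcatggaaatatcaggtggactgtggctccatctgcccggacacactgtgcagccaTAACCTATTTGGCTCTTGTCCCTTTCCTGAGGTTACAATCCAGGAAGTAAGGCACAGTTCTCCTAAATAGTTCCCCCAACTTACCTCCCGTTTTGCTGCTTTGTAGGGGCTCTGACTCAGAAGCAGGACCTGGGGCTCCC

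LOC124901612 starts on chromosome 7 (window chr7:33803122-33803421, minus strand). Its smoke peak (deposited fold 4.30, −log10 q 1.68) had its summit 100 bp inside the gene and covered the last 123 bases of the window. CPMER (chr22:27714921-27715220, minus strand) had 66 bases under a smoke peak with a −log10 q of 1.68. LINC02442 (chr12:67589941-67590240, minus strand) had 149 bases under a smoke peak of fold 3.76, with the summit 11 bp from the start. LOC105371775 (chr17:40671355-40671654, plus strand) had 140 bases under a smoke peak of the same fold, with the summit 22 bp from the start. In all 4 windows the peak covered the start itself and ran on into the gene. The choice of windows required this for any summit past the start, so it is no finding. The windows under air peaks were these:
LINC02408: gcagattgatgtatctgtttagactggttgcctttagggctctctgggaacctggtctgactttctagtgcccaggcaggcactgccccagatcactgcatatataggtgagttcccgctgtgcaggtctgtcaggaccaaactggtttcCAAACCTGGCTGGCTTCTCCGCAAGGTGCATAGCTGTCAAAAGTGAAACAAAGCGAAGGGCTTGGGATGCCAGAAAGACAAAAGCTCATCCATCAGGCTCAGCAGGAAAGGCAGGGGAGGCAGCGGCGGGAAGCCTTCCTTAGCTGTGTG
LINC03066: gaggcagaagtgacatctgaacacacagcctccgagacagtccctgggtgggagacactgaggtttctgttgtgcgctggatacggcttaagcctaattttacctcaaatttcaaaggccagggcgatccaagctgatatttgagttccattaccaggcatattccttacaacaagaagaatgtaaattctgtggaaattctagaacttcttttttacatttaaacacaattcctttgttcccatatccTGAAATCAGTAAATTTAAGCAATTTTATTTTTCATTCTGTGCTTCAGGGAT
LOC105375996: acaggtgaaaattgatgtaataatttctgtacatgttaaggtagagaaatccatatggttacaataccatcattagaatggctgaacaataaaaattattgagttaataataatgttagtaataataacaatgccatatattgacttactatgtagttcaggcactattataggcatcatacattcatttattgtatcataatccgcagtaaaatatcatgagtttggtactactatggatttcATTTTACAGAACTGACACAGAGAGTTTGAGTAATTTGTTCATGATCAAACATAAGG
PCAT7: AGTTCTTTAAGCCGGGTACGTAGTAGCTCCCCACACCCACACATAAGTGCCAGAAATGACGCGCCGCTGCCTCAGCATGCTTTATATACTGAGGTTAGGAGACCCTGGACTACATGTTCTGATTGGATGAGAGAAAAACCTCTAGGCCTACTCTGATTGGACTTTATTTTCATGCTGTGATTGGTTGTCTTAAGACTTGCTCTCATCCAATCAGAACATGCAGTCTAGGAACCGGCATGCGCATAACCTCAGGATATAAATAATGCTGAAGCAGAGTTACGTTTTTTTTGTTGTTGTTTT

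LINC02408 (chr12:67519832-67520131, plus strand) had the strongest peak of the 8 together with LINC03066. Its air peak was 547 bp wide (deposited fold 5.22, −log10 q 2.49), with the summit 29 bp from the start and 150 bases of the window covered. DYRK2, which encodes a protein kinase, was the nearest coding gene to both this peak (128.6 kb) and the smoke peak at the start of LINC02442 (58.8 kb). LINC03066 (chr6:205435-205734, minus strand) had 51 bases under an air peak of fold 4.60. LOC105375996 (chr9:25570001-25570300, minus strand) had 56 bases under an air peak of fold 4.64. PCAT7, a transcript named for its association with prostate cancer, was the only gene of the 8 whose whole window (chr9:94554833-94555132, plus strand) lay under a peak. Its air peak of 344 bp had a fold of 4.64 and its summit 72 bp before this listed start, but inside the gene span.

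The base composition of the windows under peaks was given by their median GC content. This was 43.0% under smoke peaks (32.7 to 59.0) and 44.7% under air peaks (29.0 to 63.3). Over all 12836 noncoding windows the median was 50%, with quartiles of 41.7% and 61.0%. That set, used for the motifs below too, was not limited to starts that such a peak could touch. It is therefore no matched background. The letters TATAAA, a core promoter element, were on either strand of 3 of 13 smoke and 3 of 20 air windows and of 15.1% of all noncoding windows. PCAT7 and LOC124901612 were the printed windows that held them. GCGTG, the core of the aryl hydrocarbon receptor site, was in 2 smoke and 1 air windows, and in 25.6% of all noncoding windows. TGACNNNGC, the core of the antioxidant response element, was in 1 and 2 windows (12.6% of all), and TGANTCA, the AP-1 motif, in 2 and 3 (10.3% of all). These last 2 motifs can overlap each other. CACGTG was in 0 windows of either library and in 5.42% of all. A match describes the letters only.

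Noncoding RNA genes held a near equal part of both lists. Their share was 11.7% in smoke (11.3 to 12.1, 95% Wilson interval) and 11.5% in air (11.1 to 11.9). The spans that could hold such peaks added up to 315.3 Mb, which gave 8.90 smoke peaks per Mb (exact Poisson interval 8.58 to 9.24) and 9.82 air peaks per Mb (9.48 to 10.2). Protein-coding spans, 1261 Mb in all, held 8.12 (7.96 to 8.28) and 9.27 (9.10 to 9.44) per Mb. The density inside noncoding RNA genes was thus above that inside coding genes in both libraries, by a factor of 1.10 in smoke and 1.06 in air. Among peaks with a −log10 q of 2 or more, the intervals overlapped in both libraries, with 1.53 against 1.43 smoke peaks per Mb and 2.39 against 2.32 air peaks per Mb. The noncoding value was still the higher of each pair. By chromosome, noncoding spans were the denser on 14 of 23 in smoke and on 12 in air. Intervals cover counting error only, and how much of each span could be mapped was not measured.

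The peaks were close to their lists in strength and width. The authors' fold, which compares a peak with background, had a median of 3.76 in smoke noncoding genes (quartiles 3.22 and 4.30, highest 7.52), the same as over the whole smoke list. In air it was 3.91 (quartiles 3.48 and 4.35, highest 7.54), against 3.93 over the air list. Median widths were 223 bp in smoke and 276 bp in air, against 225 and 277 bp over the lists. A q of 0.05 or lower was reached by 45.5% of the smoke peaks (43.7 to 47.4; 44.4% of the whole list) and by 60.7% of the air peaks (59.0 to 62.4; 60.4% of the list). Many values were tied, with 312 distinct folds among the 2807 smoke peaks.

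Density was higher far from coding genes and from starts than near them. In the part of noncoding RNA genes within 10 kb of a protein-coding gene there were 6.58 smoke peaks per Mb (5.78 to 7.47) and 7.15 air peaks per Mb (6.32 to 8.07). At 250 to 500 kb there were 10.5 (9.69 to 11.3) and 11.7 (10.9 to 12.6). The smoke share of the peaks stayed between 47.1% and 48.0% in all 5 distance classes, against 47.5% over all of them (46.3 to 48.8). Starts were known for 11383 of 18229 noncoding RNA genes. Within 1 kb of the nearest start the density was 6.48 smoke peaks per Mb (4.92 to 8.37; 58 peaks) and 6.03 air peaks per Mb (4.53 to 7.87; 54 peaks). Beyond 100 kb from a start it was 10.4 (9.18 to 11.7) and 11.9 (10.6 to 13.3). The density in coding genes also went up, from 5.02 and 5.78 per Mb within 1 kb to 9.64 and 11.0 beyond 100 kb.

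**Figure D1:**
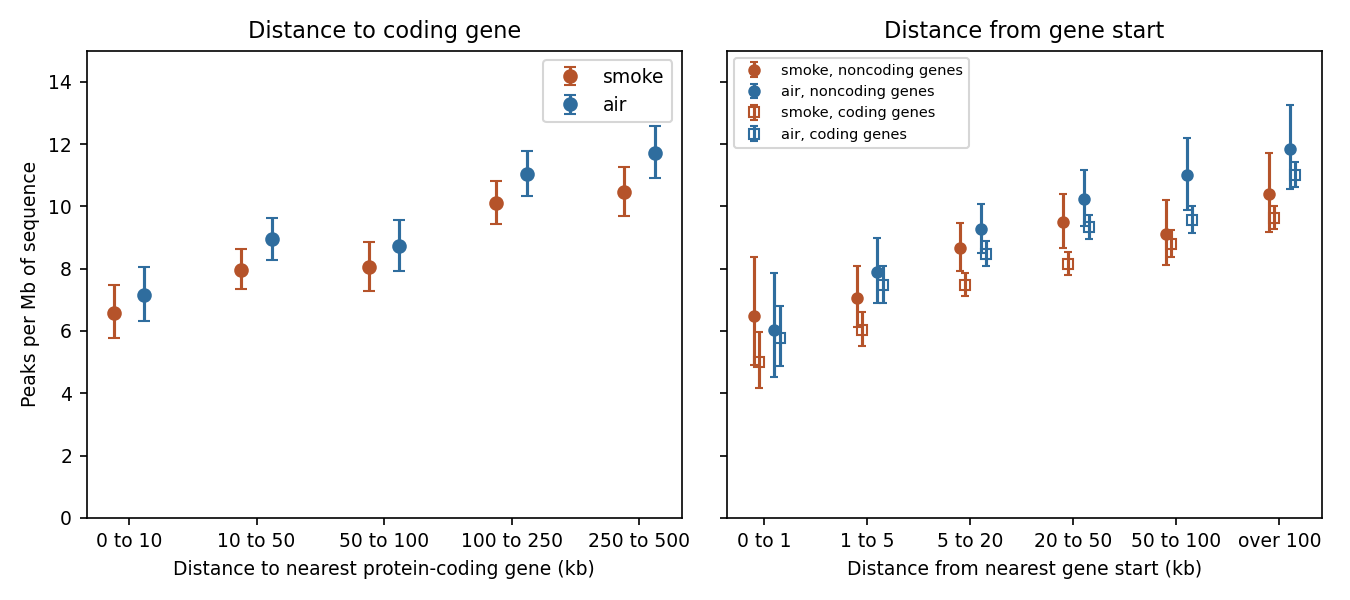
Peaks per Mb of noncoding RNA gene span by distance to the nearest protein-coding gene (left, kb), and by distance from the nearest gene start in noncoding and coding genes (right, kb). Points are single libraries and bars are exact 95% Poisson intervals; from the nearest to the farthest class the smoke density to the left runs from 6.58 to 10.5 and the air density from 7.15 to 11.7.

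With both libraries summed, chromosomes 6, 12 and 13 had the highest densities. Chromosome 6 had 12.1 smoke and 13.9 air peaks per Mb of noncoding gene span, and chromosome 13 had 12.9 and 11.8. Chromosome X had the fewest, 3.20 and 3.69. The smoke share ran from 41.2% on chromosome 12 (36.4 to 46.1; 161 smoke and 230 air peaks) to 57.5% on chromosome 16 (48.3 to 66.2; 65 and 48 peaks). These were the 2 of 23 chromosomes whose interval left out the overall share.

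The strongest smoke peak in the set lay in FAM86B2-DT and LOC729732, which overlap on chromosome 8 (12545660 to 12545923, fold 7.33, −log10 q 7.31). The next lay in LOC124901978, also on chromosome 8 (92870056 to 92870324, fold 7.52, −log10 q 6.10), 13.3 kb from TRIQK. LINC01054, on chromosome 13 (114329670 to 114330033), held a smoke peak of fold 6.81, 2.45 kb from CHAMP1, a chromosome alignment gene. LINC00973 on chromosome 3 (98978976 to 98979256) had a fold of 6.98. The other 4 of the 8 strongest were tied (fold 6.45, −log10 q 4.02), in LINC02201, LOC124900233, TBX3-AS1 and LINC00333. TBX3-AS1 runs beside TBX3, which encodes a T-box transcription factor, and its peak was 83.1 kb from that gene. Of these 8 smoke peaks 0 had an air peak within 1 kb, beside 4.43% of all smoke peaks.

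In air the strongest peak lay where LOLI1 and NEPRO-AS1 overlap on chromosome 3 (113055874 to 113056285, fold 7.29, −log10 q 6.43). TSBP1-AS1 followed, inside the major histocompatibility region of chromosome 6 (32285525 to 32285839, fold 7.54, −log10 q 5.80). DLEU1, a gene of the interval commonly deleted in chronic lymphocytic leukaemia, held an air peak on chromosome 13 (50512455 to 50512696) with a fold of 6.82. SLC7A11-AS1 is the antisense neighbour of SLC7A11, the cystine transporter gene that supplies glutathione synthesis. Its air peak on chromosome 4 (138138737 to 138139056, fold 6.96, −log10 q 4.72) was 25.1 kb from SLC7A11. LOC101928570, LOC105371750, LOC105369673 and LINC00534 completed the 8, with folds of 6.77, 6.62, 6.52 and 6.25. The LINC00534 peak was 1109 bp wide, the widest of the set in air. Of these 8 air peaks 0 had a smoke peak within 1 kb, beside 3.9% of all air peaks.

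The 5 strongest smoke peaks within 1 kb of a start were in LOC124904862 (fold 5.16, 229 bp from the start), LOC105378443, LOC105374521, ADGRB3-DT and LOC107984685. ADGRB3-DT is the divergent transcript of ADGRB3, an adhesion receptor gene of the brain, and its peak was 1.85 kb from that gene (fold 4.84). In air they were in LOC124901382 (fold 5.73, 614 bp from the start), LOC105378561, LINC02408, LINC03066 and LINC02541. ADIPINT, an adipocyte transcript known to bind pyruvate carboxylase, was next, with an air peak of fold 4.69, 267 bp from its start, and was named after its values were seen.

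Smoke and air peaks rarely fell on the same place. In noncoding RNA genes 48 smoke peaks overlapped an air peak by at least 1 bp, 1.71% (1.29 to 2.26), beside 1.58% of all smoke peaks. In air 47 did, 1.52% (1.14 to 2.01), beside 1.41% of all air peaks. In coding spans the shares were 1.27% (1.07 to 1.51) and 1.11% (0.937 to 1.32), and the intervals overlap those of the noncoding genes. Within 1 kb, 4.10% of these smoke peaks had an air neighbour (4.43% of all smoke peaks) and 3.62% of these air peaks a smoke neighbour (3.9% of all air peaks). The members' shares were therefore near those of the lists. Both lists carry the same control code in their names, and its part in the overlap was not tested.

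The 47 overlapping pairs with both summits in noncoding RNA genes lay in 48 genes on 18 chromosomes. They shared a median of 142 bp (2 to 348), with summits a median of 148 bp apart, and 14 pairs had a q of 0.05 or lower in both libraries. Ranked by the lower of the 2 −log10 q values, the first pairs were in G2E3-AS1 on chromosome 14 and LINC01837 on chromosome 19, with equal values of fold 4.84 in smoke and 4.61 in air. At G2E3-AS1 the smoke peak (30490983 to 30491212) and the air peak (30490873 to 30491182) shared 200 bp. At LINC01837 the air peak (31857753 to 31857910) lay wholly inside the smoke peak (31857463 to 31857957). LOC124903159 on chromosome 13 held a pair with summits 18 bp apart (folds 4.30 and 4.69), and LINC02331, 119 kb from the growth factor gene BMP4, a pair with summits 4 bp apart (4.84 and 4.06).

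SOX2-OT also held a pair, on chromosome 3 (smoke 181362122 to 181362400, air 181361904 to 181362243), 350 kb from SOX2, the stem cell factor gene that lies within the SOX2-OT span. MIRLET7IHG, the host gene of let-7i, held one on chromosome 12 (smoke 62613954 to 62614245, air 62613788 to 62614182) with 229 bp in common. The others of the first 15 by this order were in LINC02712, LOC105379171, LOC102723323, LOC105375236, LOC105375905, LOC105375416, CAVIN2-AS1, LINC00437 and LINC00536. In 1 further case a smoke peak in LINC01892 overlapped an air peak whose own summit was outside the gene, a gene named after its values were seen.

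Gene by gene the libraries met more often. Of the 13168 noncoding RNA genes with any sequence that could hold such a peak, 820 (6.23%) held peaks of both libraries. Smoke peaks alone were found in 967 (7.34%) and air peaks alone in 1061 (8.06%), so that 21.6% had a peak in either. For 19970 protein-coding genes the figures were 14.3%, 9.14%, 10.6% and 34.1%. Up to 10 kb of usable length was all that 7081 of the noncoding genes had, against 5655 of the coding genes. By length class the shares lay nearer to each other. In the class up to 10 kb 0.226% of noncoding and 0.141% of coding genes had peaks in both libraries. From 100 to 250 kb 54.7% of 552 noncoding genes (50.5 to 58.8) and 48.9% of 2353 coding genes (46.9 to 50.9) did. Above 250 kb it was 86.6% (80.5 to 91.0) and 86.4% (84.1 to 88.4). A peak in both libraries thus went with gene length in both kinds of gene. The lists hold only a part of the numbered peaks, so a gene without a listed peak may still have had a called one.

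**Figure D2:**
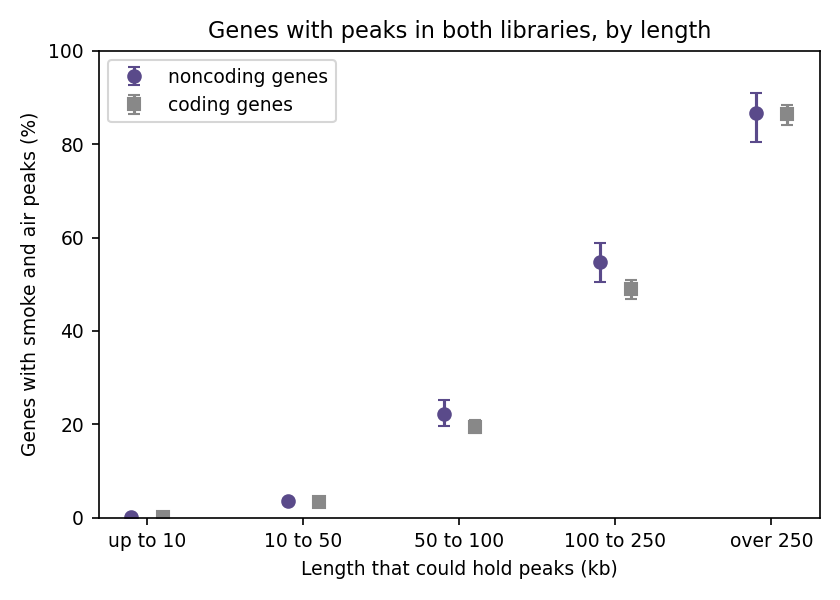
Share of genes with both a smoke and an air peak (%), by the length that could hold peaks (kb), for noncoding RNA genes (circles) and protein-coding genes (squares). Bars are 95% Wilson intervals; the share rises from 0.226% to 86.6% in noncoding and from 0.141% to 86.4% in coding genes.

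Of the 2848 noncoding RNA genes with a peak, 1638 (57.5%) had a single peak. All 65 genes with at least 10 peaks had some from each library. With 47.5% of all these peaks from smoke, so many peaks in a gene would mostly include both. The same share among coding genes was not counted. MEF2C-AS1, which runs antisense beside the gene of the transcription factor MEF2C, had the most, 13 in smoke and 14 in air, over 584.3 kb on chromosome 5 (88883330 to 89467581). Its strongest smoke peak had a fold of 6.21 and its strongest air peak 5.21. SOX2-OT had 8 smoke and 16 air peaks over 685.5 kb on chromosome 3 (181056680 to 181742228), with folds up to 4.30 in smoke and 6.38 in air. CASC15, a locus of neuroblastoma susceptibility on chromosome 6 (21666413 to 22195820), had 7 and 12. LOC105375630 had 9 smoke and 14 air peaks and LOC107986195 had 12 and 8. DISC1FP1, LINC00536, LOC101927314, LOC105374060 and LOC105379107 had 17 peaks each, between 6 and 11 in either library.

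**Figure D3:**
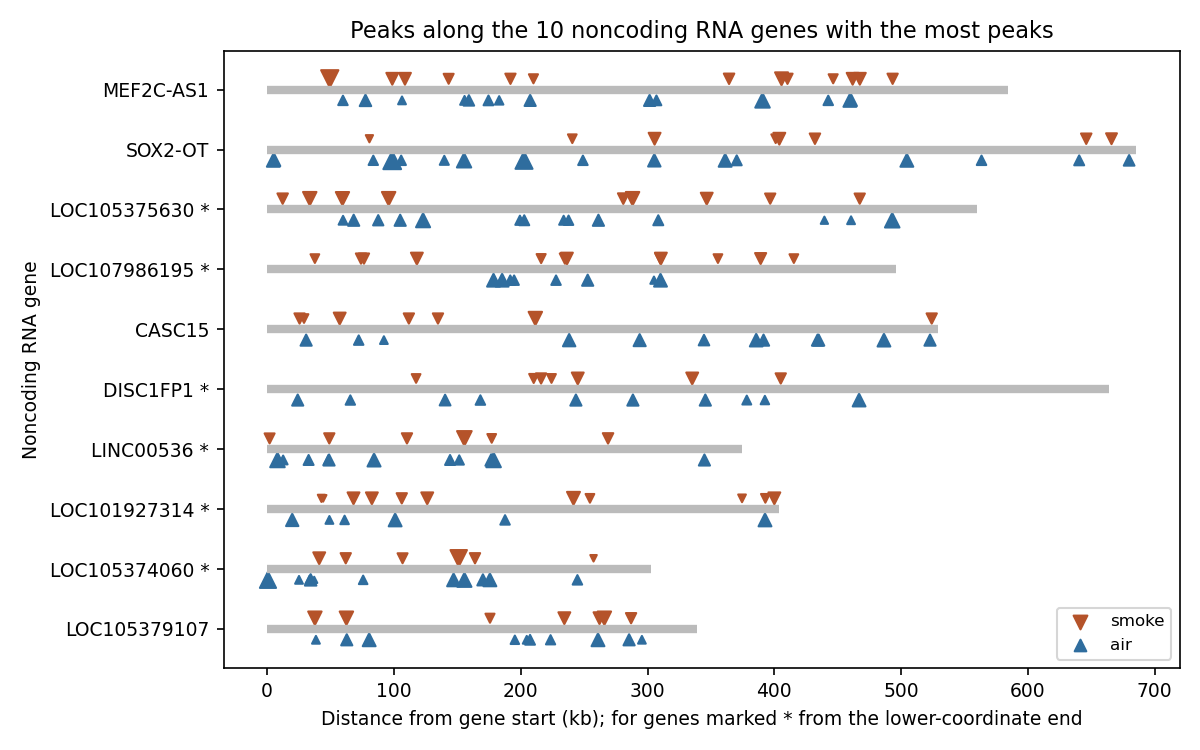
Summits of smoke (downward triangles) and air peaks (upward triangles) along the 10 noncoding RNA genes with the most peaks, in kb from the gene start or, for genes marked with an asterisk, from the end of lower coordinate. Grey bars are whole gene spans and larger symbols have a higher deposited fold. In MEF2C-AS1, SOX2-OT, LOC105375630 and DISC1FP1 only a part of the span could hold such a peak. In CASC15, 6 of 7 smoke peaks lie in the first 264.7 kb and 8 of 12 air peaks beyond it.

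Peaks were spread along several of these spans. In MEF2C-AS1 smoke summits reached from 49.4 to 493.3 kb from the start and air summits from 59.8 to 460.8 kb. Only 500 of its 584.3 kb could hold such a peak under the membership rule, so an empty part need not lack peaks. The same held for LOC105375630 (499.6 of 559.8 kb), DISC1FP1 (471.8 of 663.8 kb) and SOX2-OT (683.0 of 685.5 kb). In SOX2-OT air summits began 4.84 kb from the start and smoke summits at 80.6 kb. CASC15 had 6 of 7 smoke summits in the part before its middle and 8 of 12 air summits after it. In LINC00536 both libraries leaned to the end of lower coordinate, with 5 of 6 smoke and 10 of 11 air summits before the middle. LOC107986195 had air summits only from 178.5 to 310.2 kb along the span, while smoke summits ran from 37.6 to 415.4 kb.

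By density the order was different. Among 412 genes of at least 20 kb with 4 or more peaks, LOC105370475 on chromosome 14 had 17.3 peaks per 100 kb (1 smoke and 3 air peaks in 23.1 kb). LOC124901978, home of the second strongest smoke peak, had 16.3 (1 and 3 peaks in 24.6 kb). LOC105369832 on chromosome 12 had 13.2, from 4 smoke peaks and 1 air peak. LOC105378787 had 12.3, LOC105375733 had 12.1 and LOC105370246 had 11.5. LOC105370246 stood apart as the only gene of these 6 with equal numbers, 4 peaks in each library over 69.5 kb of chromosome 13.

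At least 4 peaks were held by 413 genes. Of these, 5 had smoke peaks alone (1.21%), beside 1.65% of the 1702 coding genes with as many peaks. LOC105369677 on chromosome 12 (16787921 to 16988633) had 7 smoke peaks over 200.7 kb, with folds from 2.69 to 4.84. BDNF-AS, the antisense gene of the neurotrophin gene BDNF, had 4 smoke peaks on chromosome 11 (27506852 to 27698171), with folds from 3.22 to 4.30. LOC101927995, LOC101928832 and LOC105377785 also had 4 each. Air peaks alone were found in 11 of the 413 (2.66%), beside 4.29% of those coding genes. LOC107987108 on chromosome 9 had 7 air peaks in 675.8 kb, and LOC105369715 on chromosome 12 had 6 in 182.8 kb. LINC01787, LINC02405, LOC105375629 and LOC112268038 had 5 each. LOC112268038 was the most compact of them, at 9.93 air peaks per 100 kb, with folds from 3.13 to 4.06. LOC105375629 lies within the span of LOC105375630, which had 9 smoke peaks elsewhere along its length.

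**Figure D4:**
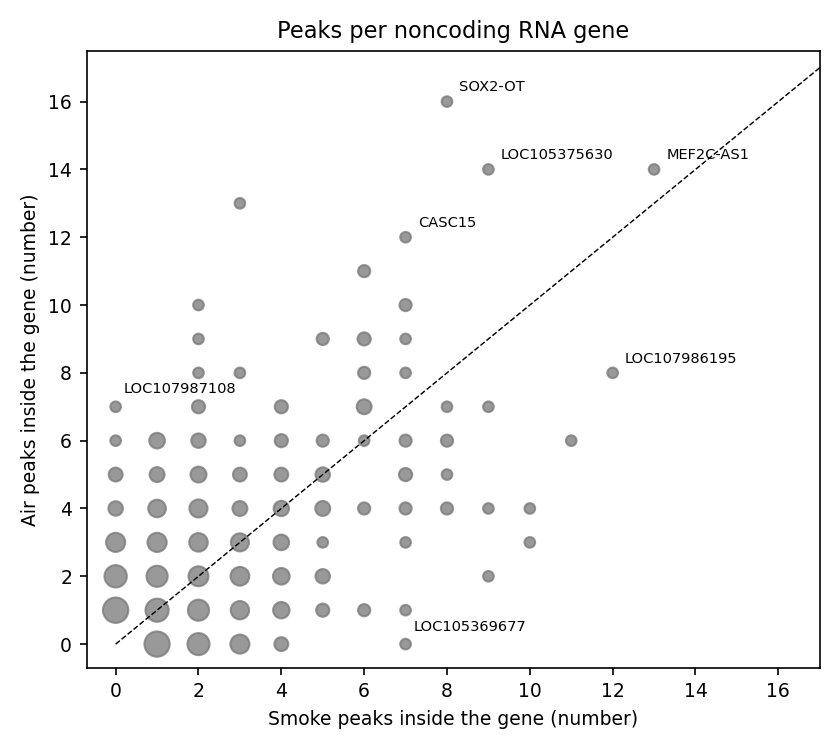
Number of smoke peaks (x axis) and air peaks (y axis) in each of the 2848 noncoding RNA genes with a peak. Each point stands for all genes with those 2 numbers, its area grows with the logarithm of how many there are, and the dashed line marks equal numbers; SOX2-OT lies at 8 and 16 and LOC105369677 at 7 and 0.

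By the form of the gene symbol, densities were alike. Genes named LINC had 9.37 smoke (8.67 to 10.1) and 10.6 air peaks (9.88 to 11.4) per Mb, summed gene by gene. Uncharacterised LOC genes, 8740 of the 13168, had 8.71 (8.30 to 9.14) and 9.71 (9.27 to 10.2). Antisense genes had 8.38 (7.41 to 9.44) and 9.28 (8.26 to 10.4). Divergent transcripts, which start at a coding gene's promoter and run away from it, were the only form among these 4 with more smoke than air peaks, 150 against 143, and their densities of 9.58 (8.10 to 11.2) and 9.13 (7.69 to 10.8) overlapped.

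MicroRNA host genes are long RNAs from which microRNAs are cut. Of 75 with sequence that could hold such a peak, 30 (40.0%) had a peak, beside 21.6% of all noncoding RNA genes. Both libraries had peaks in 14 of them, smoke alone in 4 and air alone in 12. Their median usable length was 19.2 kb, against 8.78 kb over all noncoding RNA genes. They held 42 smoke peaks, 8.19 per Mb (5.90 to 11.1), and 58 air peaks, 11.3 per Mb (8.59 to 14.6). RefSeq places 42 hairpins in the spans of 25 of the 30, and 5 seeds (bases 2 to 8 of the mature microRNA) occurred in more than 1 of these host genes. The let-7 seed occurred in 5, so the mature sequences of that family are shown with the seed in capitals:
hsa-let-7a-5p: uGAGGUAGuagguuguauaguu
hsa-let-7c-5p: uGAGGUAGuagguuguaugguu
hsa-let-7d-5p: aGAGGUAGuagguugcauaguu
hsa-let-7f-5p: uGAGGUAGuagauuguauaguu
hsa-let-7i-5p: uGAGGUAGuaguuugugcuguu
hsa-miR-4500: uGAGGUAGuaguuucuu

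The let-7 microRNAs repress growth genes such as RAS and are often low in tumours. Their host gene MIR99AHG on chromosome 21 had the most peaks of the group, 6 in smoke and 9 in air, with folds up to 3.82 and 4.06. MIR100HG on chromosome 11 had 2 smoke and 5 air peaks, and MIR4500HG on chromosome 13 had 5 and 2. MIRLET7IHG had 2 and 1, and MIRLET7A1HG had 0 and 1. The nearest air summit was 7.03 kb from the MIRLET7A1 hairpin, 10.2 kb from MIRLET7I and 164.8 kb from MIRLET7C. The nearest smoke summit was 10.3 kb from MIRLET7I and 222.9 kb from MIRLET7C. Under the 500 kb rule only 309.6 of the 561.2 kb of MIR99AHG could hold such a peak. Its distances to MIRLET7C are therefore not comparable with the others. MIR99AHG and MIR100HG also carry a second family with 1 shared seed:
hsa-miR-99a-5p: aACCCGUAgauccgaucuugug
hsa-miR-100-5p: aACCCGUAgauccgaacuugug

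Distances to hairpins of other families varied widely. The nearest air summit was 119.1 kb away in MIR4435-2HG, 78.4 kb in MIR4527HG, 75.5 kb in MIR4713HG and 70.4 kb in MIR646HG. In smoke it was 144.2 kb away in MIR4527HG, 108.6 kb in MIR4713HG and 33.9 kb in MIR646HG. In MIR31HG the nearest smoke summit was 8.30 kb and the air summit 43.9 kb from the hairpin. Apart from the smoke distance in MIR9-2HG, those given below were shorter. However, MIR17HG, MIR23AHG and MIR3945HG span only 6.89, 8.40 and 12.4 kb. Any summit inside those 3 genes had to be near a hairpin. MIR17HG, host of the miR-17-92 cluster that promotes proliferation, had 1 air peak of fold 5.22 with its summit 0.352 kb from the middle of the MIR17 hairpin, and 0 smoke peaks. MIR137HG had 1 smoke and 2 air peaks, with an air summit 0.264 kb and the smoke summit 7.35 kb from the MIR137 hairpin. MIR9-2HG had 1 smoke and 5 air peaks, with an air summit 2.68 kb and the smoke summit 58.8 kb from the MIR9-2 hairpin. MIR9-1HG had 1 air peak, 5.18 kb from the MIR9-1 hairpin. MIR23AHG had 1 smoke peak, 3.82 kb from the MIR23A hairpin, and 0 air peaks. MIR4307HG, MIR3945HG and MIR3659HG each had 1 air peak, 3.00, 3.32 and 4.66 kb from their hairpins, and 0 smoke peaks. MIR9-3HG had 0 peaks in either library. The mature forms at the MIR17, MIR137 and MIR9 sites are shown with their seeds, and the miR-9 sequence is the same in MIR9-1HG and MIR9-2HG:
hsa-miR-17-5p: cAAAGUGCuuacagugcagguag
hsa-miR-137-3p: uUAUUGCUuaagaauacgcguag
hsa-miR-9-5p: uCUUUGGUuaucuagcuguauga

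MIR548A1HG, with 3 smoke and 3 air peaks, held the strongest smoke peak among the microRNA hosts, of fold 6.42. MIR548XHG had 4 and 3 peaks and MIR3681HG 5 and 1. Small nucleolar RNA host genes, which carry guides for ribosomal RNA modification in their introns, had peaks in 3 of 26 (11.5%), beside 21.6% of all noncoding RNA genes, with a median usable length of 4.22 kb against 8.78 kb. SNHG14, the long imprinted transcript that runs antisense to UBE3A, had 3 air peaks with folds up to 4.95, SNHG31 had 2 air peaks, and SNHG21 had 1 smoke peak. Host genes other than MIR99AHG, MIR100HG, MIR4500HG, SNHG14, SNHG31, SNHG21 and MIRLET7IHG were named after their values were seen.

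Noncoding RNAs linked to bladder cancer had peaks in 7 of the 15 with usable sequence, beside 21.6% of all noncoding RNA genes. Their median usable length was 22.7 kb, against 8.78 kb over all. Of these 7, 3 held peaks of both libraries, 2 only smoke peaks and 2 only air peaks. CASC2, a candidate tumour suppressor on chromosome 10, had 4 smoke peaks (folds 3.66 to 4.30) and 2 air peaks (fold 4.06). LINC01605 had 3 and 1, and MIR31HG, host of miR-31, had 2 and 1, the air peak with a fold of 4.69. MALAT1, the abundant nuclear RNA linked to metastasis, had 1 smoke peak (fold 3.73), and CASC9 had 2 smoke peaks (4.30 and 5.37). PVT1, the neighbour of MYC, had 1 air peak (fold 3.80) in 306.7 kb, and LINC00958 had 1 (3.48). The list held 12 smoke and 6 air peaks in 0.981 Mb, 12.2 (6.32 to 21.4) and 6.11 (2.24 to 13.3) per Mb, with overlapping intervals. HOTAIR, NEAT1, MEG3, GAS5, SNHG16, LINC00857, LINC00511 and CCAT2 had 0 peaks in either library. UCA1, H19 and SPRY4-IT1 lay wholly inside protein-coding spans, and TUG1 and BLACAT1 are listed as protein-coding, so they could not hold such a peak.

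Noncoding RNAs of the smoke and oxidative stress response had peaks in 3 of 9. MIR31HG and MALAT1 were 2 of them, and MIAT, a nuclear RNA first linked to myocardial infarction, had 1 smoke peak of fold 4.83. LUCAT1, named for smoke-related lung cancer and a target of NRF2, had 0 peaks in either library. Of 9 p53 and DNA damage genes, LINC-PINT alone had peaks, 3 in smoke (folds 4.07 to 4.67) and 2 in air (3.56 to 3.83). It is induced by p53. NORAD, which keeps Pumilio proteins away from their targets, and PURPL had 0. In lipid metabolism 3 of 8 had 1 peak each, PVT1 and LINC00958 in air and MALAT1 in smoke. CHROMR and HULC had 0. Over all noncoding RNA genes, 21.6% had a peak. Median usable lengths were 11.9 kb in the smoke list, 22.7 kb in the p53 list and 10.4 kb in the lipid list, against 8.78 kb over all.

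In the next lists too, the share over all noncoding RNA genes was 21.6%, at a median usable length of 8.78 kb. The median was 29.6 kb in the imprinted list, 4.03 kb in the HOX list and 34.3 kb in the list for neurons and other cell types. Imprinted genes with peaks were MEG8, next to MEG3 on chromosome 14, with 4 smoke and 2 air peaks (folds up to 5.37 and 4.64), and SNHG14, 2 of 7 in the list. In the HOX clusters, whose coding genes set body position, HOXB-AS1 (fold 3.91) and HAGLR (fold 4.33) each had 1 air peak, 2 of 10. The list for neurons and other cell types had peaks in 5 of 13, 11 in smoke and 24 in air. That is 8.32 (4.15 to 14.9) and 18.2 (11.6 to 27.0) per Mb, and 16 of the 24 air peaks were in SOX2-OT. MIR9-2HG (LINC00461), DLX6-AS1, LINC01122 and MIAT held the rest. RMST lay outside protein-coding spans but beyond 500 kb from one, so it could not hold such a peak. FENDRR, HAND2-AS1, MIR155HG and MIR223HG had 0. List genes beyond the 3 with the most peaks in each list were named after their values were seen.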

How the data were processed

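H2A lysine 130 acetylation was measured by ChIP-seq in 1 smoke and 1 air library of UMUC3 cells, and the input was not analysed here. The notes name MACS2, MACS and Bowtie2 and the builds mm10 and hg38, per the submitters' processing notes. Their roles and settings were not given in the sources used here. A narrowPeak list per library was deposited by the authors. The deposited score is the whole part of 10 times the −log10 p. The deposited fold is the caller's ratio to background, and the −log10 p and −log10 q are the caller's. All were used within a list only. Peak numbers ran to 134206 (smoke) and 230215 (air), so both lists hold a selection, by a filter not given.

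Groups came from the treatment labels. Genes, spans and starts were those of RefSeq (GRCh38.p14; 18229 noncoding and 19970 coding genes on chromosomes 1 to 22 and X), and peak positions are 1-based hg38. Of 199 listed symbols 197 matched, 2 of them by a synonym, and a gene listed under both its names counted once. Usable length is noncoding span minus coding spans within 500 kb. Peaks in several genes count in each. Shares have 95% Wilson intervals and densities exact Poisson ones. The functions were tested on simulated data (Python 3.11.15, SciPy 1.17.1, pandas 2.3.3).

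Named were the 8 strongest peaks of each library by −log10 q and 5 within 1 kb of a start; the 10 genes with most peaks and the 6 densest; up to 6 one-sided genes per library; the 15 highest overlapping pairs; and up to 3 genes per list. Members and lists were chosen with earlier results of these data known. The 4 windows per library with at least 50 bases under a peak and its summit inside the gene, and the microRNAs shown, were chosen after the data were examined. Alternatives covered membership, thresholds, overlap and list size.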

Additional observations from a re-analysis of the deposited data

How the results depend on the processing

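Of 58 values recomputed under the alternatives, 31 stayed within their 95% interval or, for gene counts, within 1.5 times. Some outcomes were fixed by the setting, such as a lower density after a filter on q, so this count is no measure of robustness. Biotype lncRNA alone changed no share, count or median, which had to be so because all members lay in genes of that biotype. Leaving out chromosome X kept shares and densities within their intervals. Without the distance limit the noncoding share was 13.9% in smoke and 13.6% in air, and at most 100 kb from a coding gene it was 5.34% and 5.23%, with densities of 7.69 and 8.48 per Mb and a smoke median width of 229 bp. At a fold of at least 5 the smoke share was 12.2%. At a −log10 q of at least 2 densities were 1.53 and 2.39 per Mb, the median fold was 4.84 in smoke and 4.69 in air, and the air median width was 248.5 bp. Coding spans then held 1.43 and 2.32 per Mb, and the intervals of noncoding and coding spans overlapped in both libraries, though the noncoding value was the higher. At a fold of at least 5, an alternative chosen after seeing the data, noncoding spans held 0.533 and 0.977 and coding spans 0.478 and 0.891 per Mb, also with overlapping intervals. At a −log10 q of at least 2, genes in both libraries numbered 106, in smoke alone 330 and in air alone 544. Among genes of 20 kb or more, 688 were in air alone. Shares of peaks with a partner were 0.570% (smoke) and 0.516% (air) with a reciprocal overlap of at least 50%, 4.10% and 3.62% within 1 kb, 0.416% and 0.265% for a −log10 q from 2 upwards, and 0% in both at a fold of at least 5. Over the whole lists the shares within 1 kb were 4.43% (smoke) and 3.9% (air). Whole-list shares at the other partner settings were not computed, so those low values cannot be read as a trait of noncoding RNA genes. No paired analysis was possible because each group has 1 library. Depth is unknown, so a missing peak is no absence of the mark.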
